A study of Mus musculus with 38 samples.

Results

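Regeneration of aged muscle under nicotinamide and pyridoxine (NAM/PN) was examined in the injured gastrocnemius of old mice, comparing 4 mice given NAM/PN with 3 given vehicle. These 7 libraries were chosen by their sample titles, which mark them as treated or control, injured and old, and they are part of a series of 38 libraries. All 7 animals were wild-type male C57BL/6JRj mice, and all had 1 leg injured by injection of cardiotoxin, which destroys fibres while stem cells survive. Starting before the injury they were gavaged daily with 200 mg/kg NAM and 4 mg/kg PN, or with the carboxymethylcellulose vehicle alone, and both gastrocnemius muscles were taken 5 days after injury (dpi). The labels call these mice old, and the study's methods give 23 to 25 months for aged mice. The treatment label names NAM and vitamin B6 for all treated mice, but the sample descriptions carry the compound code CPD2 for treated old mice and Cpd1 for treated young mice. No measured gene serves as a check of the treatment labels, and a swap of labels was not tested, so every direction given here rests on the labels as deposited. The uninjured, contralateral leg of each of the 7 mice was also sequenced, as part of groups of 6 NAM/PN and 6 vehicle mice, and injured muscle of 3 NAM/PN and 5 vehicle young mice was available for comparison.

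Muscle regeneration proceeds from necrosis and clearance of damaged fibres by macrophages, through expansion of PAX7-expressing muscle stem cells (MuSCs) and fibro-adipogenic progenitors that lay down a transient matrix, to fusion of MYOGENIN-expressing myocytes into new fibres. New fibres first express embryonic and neonatal myosins and only later the contractile, glycolytic and mitochondrial genes of adult fibres. NAM is a form of vitamin B3 from which cells make NAD, and PN is a form of vitamin B6 that cells convert to pyridoxal phosphate, the cofactor of transaminases and glycogen phosphorylase. Whole muscle was sequenced from transcript 3′ ends, and in such bulk tissue fewer cells of a type and less RNA per cell cannot be told apart.

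The 7 libraries held 4132508 to 7507191 counts, and 14528 to 15326 genes had counts. Mitochondrial transcripts took 7.02%, 12%, 10.6% and 8.38% of counts with NAM/PN and 19.4%, 9.89% and 16.0% with vehicle, so that vehicle replicate 2 lay within the range of the NAM/PN libraries. Among the NAM/PN libraries, replicate 4 differed most from the others, with a chi-square per degree of freedom of 29.8 to 41.7 against each of them and 5.98 to 16.8 among the other 3. Markers of the tissue were present in every library, with Myh4, the myosin of the fastest fibres, at 3285 CPM (counts scaled to a common library size) or more and the embryonic myosin gene Myh3 at 933 CPM or more.

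No gene differed between NAM/PN and vehicle at the 0.05 threshold (0 of 12610 genes tested, 0.0%, edgeR quasi-likelihood test with Benjamini-Hochberg adjustment), and the smallest adjusted p was 0.056. At an adjusted p under 0.1, 26 genes were lower with NAM/PN (0.206% of genes tested) and 0 were higher. Unadjusted p-values under 0.05 were found for 731 lower genes (5.8%) and 200 higher genes (1.59%). The 4 NAM/PN libraries lay entirely below the 3 vehicle libraries in 849 genes (6.73%) and entirely above them in 677 genes (5.37%). Over all genes the median log2 fold change was 0.00, with the middle 50% of genes between -0.23 and 0.23.

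The set of calls depended on which libraries were used to estimate the spread. The values above rest on a spread per gene shared by all 38 libraries, and a fit to the 7 old injured libraries alone called 1 gene at 0.05 and 35 at 0.1 (0.299% of 11710 genes), of which 4 were higher, 31 were lower and 7 were shared with the 26. In that fit unadjusted p-values under 0.05 were equally frequent in both directions, with 724 genes higher (6.18%) and 724 lower (6.18%). When each mouse was entered as a replicate block (voom), there were 5 genes at 0.05 and 57 at 0.1. Single libraries also decided the counts, since leaving out NAM/PN replicate 4 gave 112 genes at 0.05 and 209 at 0.1, leaving out vehicle replicate 2 gave 13 and 37, and leaving out NAM/PN replicate 1 or 3 or vehicle replicate 1 or 3 gave 0 at both thresholds. All 26 genes were lower in each of these fits except that to the 7 libraries, where 25 were tested and all 25 were lower.

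**Figure D1:**
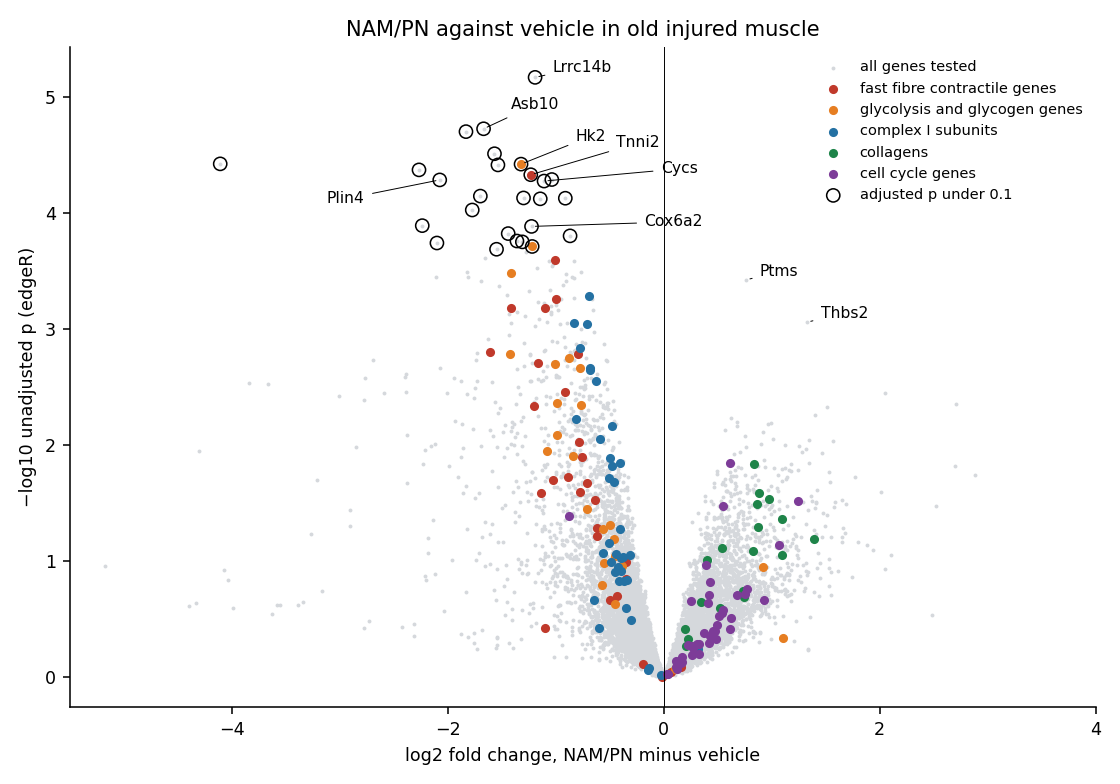
Each point is a gene, with its log2 fold change (NAM/PN minus vehicle) on the x axis and the −log10 of its unadjusted edgeR p on the y axis, coloured by gene list. The 26 circled genes at an adjusted p under 0.1 all lie left of 0, with most fast fibre and glycolysis genes also left of 0. Collagens and 41 of 42 cell cycle genes lie to the right at smaller −log10 p.

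Genes of glycolysis, mitochondria, fast contraction and lipid handling were among the 26 lower genes. The 26 ranged in log2 fold change from -4.11 to -0.87 and in adjusted p from 0.056 to 0.0998, and in all 26 the highest NAM/PN library lay below the lowest vehicle library. The lowest of these folds is that of Gm10032, which had 0 counts in 3 of the 4 NAM/PN libraries, so that its size depends on the prior count of the fit. Within the NAM/PN group replicate 1 was the lowest library in 24 of the 26 genes and replicate 4 the highest in 16. Within the vehicle group replicate 1 was the highest in 20 and replicate 2 the lowest in 19.

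The smallest p-value belonged to Lrrc14b (ENSMUSG00000021579, GRCm38 chromosome 13, 74359578 to 74364005), which encodes a leucine-rich repeat protein. Its level was 5.67, 9.07, 8.62 and 7.17 CPM in the NAM/PN libraries and 20.6, 16.0 and 15.8 CPM in the vehicle libraries. These groups were well separated, and the log2 fold change was -1.19 (standard error 0.23, adjusted p = 0.056 by edgeR). In the uninjured leg the same gene was at 46.5 to 64.1 CPM with NAM/PN and 42.3 to 61.7 CPM with vehicle, and in young injured muscle at 7.68 to 14.1 and 7.63 to 17.1 CPM. Old vehicle injured muscle was thus the injured group in which Lrrc14b was highest, next to young vehicle, with which its range overlapped.

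Genes of glucose entry into metabolism included Hk2, the hexokinase that starts glycolysis in muscle (ENSMUSG00000000628, chromosome 6, 82725025 to 82774454). It measured 42.5, 76.6, 77.3 and 116 CPM with NAM/PN and 232, 153 and 198 CPM with vehicle, a log2 fold change of -1.32 (standard error 0.28, adjusted p = 0.056 by edgeR). Gpd1, the cytosolic glycerol-3-phosphate dehydrogenase that passes reducing equivalents from glycolysis to mitochondria, measured 40.2, 75.8, 60.6 and 119 CPM against 175, 175 and 165 CPM, a log2 fold change of -1.22 (standard error 0.29, adjusted p = 0.0983 by edgeR). Slc25a12, the aspartate-glutamate carrier of the malate-aspartate shuttle, stood at 85.2, 163, 110.0 and 142 CPM against 365, 178 and 284 CPM, so that the highest NAM/PN and the lowest vehicle library almost met. Mlxipl encodes ChREBP, a transcription factor that responds to glucose, and had a log2 fold change of -1.31 (standard error 0.31, adjusted p = 0.0957 by edgeR). Prkab2, a regulatory subunit of the energy sensor AMPK, was at 43.9, 64.0, 63.7 and 77.4 CPM against 164, 164 and 179 CPM and was the gene with the second smallest p in the fit to 7 libraries alone (log2 fold change -1.41, standard error 0.19, adjusted p = 0.0562 by edgeR).

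Mitochondrial genes among the 26 included, beside the carrier gene Slc25a12 given above, Cycs, Cox6a2, Pink1, Gdap1 and Aldh4a1. Cycs encodes cytochrome c, which carries electrons to complex IV (ENSMUSG00000063694, chromosome 6, 50562563 to 50566538), and it measured 19.3, 28.5, 20.0 and 31.2 CPM with NAM/PN and 67.6, 40.3 and 51.8 CPM with vehicle. Its log2 fold change was -1.11 (standard error 0.24, adjusted p = 0.056 by edgeR). Cox6a2, the muscle isoform of a complex IV subunit, stood at 357, 766, 535 and 661 CPM against 1902, 837 and 1319 CPM, with vehicle replicate 2 close to NAM/PN replicate 2. Pink1, the kinase that marks damaged mitochondria for removal (chromosome 4, 138313409 to 138326307), measured 69.6, 106, 80.4 and 122 CPM against 245, 138 and 198 CPM. Gdap1, a protein of the outer mitochondrial membrane, was low in all libraries, at 1.05 to 2.87 CPM against 7.19 to 7.89 CPM. Aldh4a1, which degrades a product of proline in mitochondria, had a log2 fold change of -0.91 (standard error 0.20, adjusted p = 0.0597 by edgeR).

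The other named members had varied roles. Tnni2, the fast isoform of the inhibitory troponin (ENSMUSG00000031097, chromosome 7, 142441808 to 142444410), measured 1626, 2775, 2621 and 4406 CPM with NAM/PN and 7630.0, 5777 and 6696 CPM with vehicle, a log2 fold change of -1.23 (standard error 0.27, adjusted p = 0.056 by edgeR). Every NAM/PN library held less Tnni2 than every vehicle library, and replicate 4 was nearest to the vehicle range. Plin4, a coat protein of lipid droplets that is also a fat cell marker, stood at 6.20, 15.2, 9.99 and 14.2 CPM against 50, 34 and 59.4 CPM, and Vldlr, a receptor for triglyceride-rich lipoproteins, at 9.63, 25.7, 29.1 and 28.2 CPM against 90.7, 55.5 and 79.0 CPM. Asb10, a substrate adaptor of a ubiquitin ligase, had a log2 fold change of -1.67 (standard error 0.34, adjusted p = 0.056 by edgeR). The secreted protein of Wfikkn2 binds and blocks myostatin, the inhibitor of muscle growth. Wfikkn2 was at 1.37 to 2.39 CPM with NAM/PN and 4.66 to 5.59 CPM with vehicle, and Mstn, the myostatin gene, at 0.659 to 2.87 CPM and 4.39 to 8.17 CPM (log2 fold change -2.07, standard error 0.62, adjusted p = 0.219 by edgeR). Art1, a muscle ADP-ribosyltransferase that consumes NAD, had a log2 fold change of -0.87 (standard error 0.21, adjusted p = 0.0946 by edgeR), and Pla2g4e, a cytosolic phospholipase, one of -1.83 (standard error 0.37, adjusted p = 0.056 by edgeR). Timp4, an inhibitor of matrix metalloproteinases, Tcea3, a transcription elongation factor, and Prr33 had log2 fold changes of -2.23, -1.36 and -1.53. The remaining 5 genes carry predicted or clone names in the annotation used here, and their roles were not looked up.

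**Figure D2:**
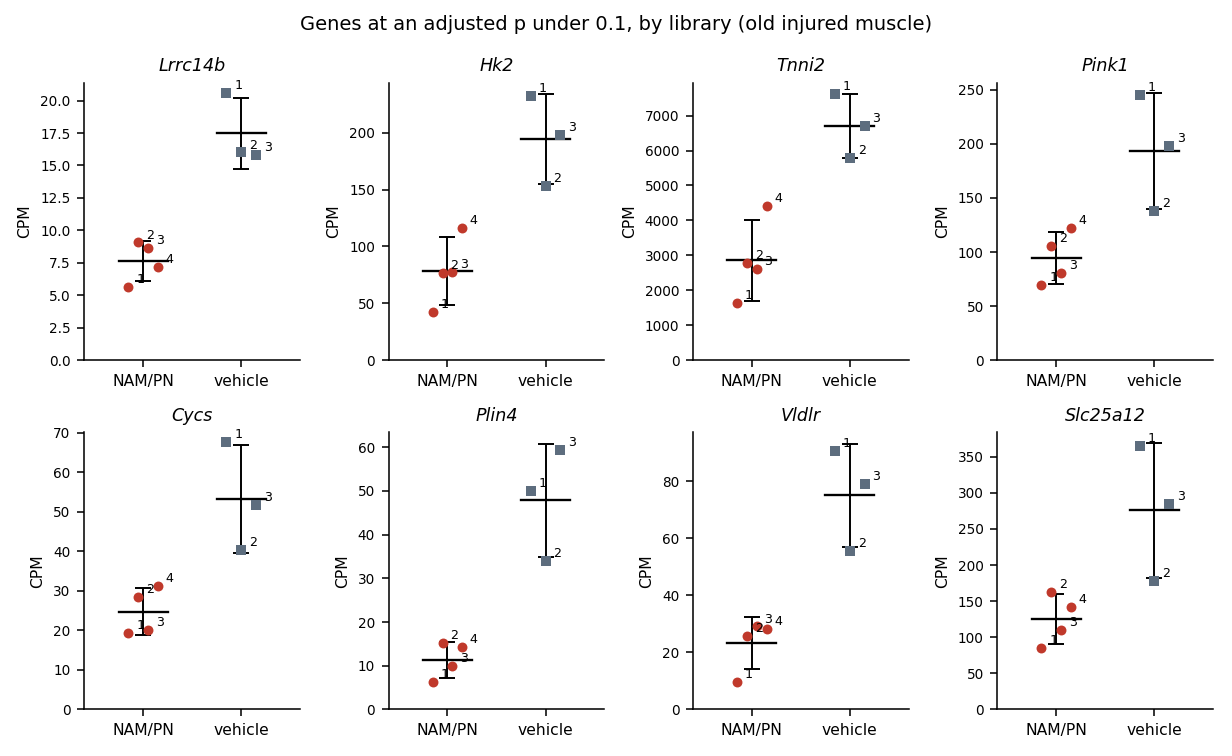
CPM of 8 of the 26 genes in each of the 7 libraries, numbered by replicate, with NAM/PN as circles, vehicle as squares, bars at the mean and error bars of 1 SD. The groups do not overlap in any panel, and in Pink1, Cycs and Slc25a12 vehicle replicate 2 lies near the highest NAM/PN library.

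Promoter sequences were inspected because these genes were lower together. RefSeq promoters (GRCm38.p6, 300 bases from 250 before to 50 after the transcription start) were found for 21 of the 26 genes, and those of Cox6a2, Gdap1, Gm10032, Gpd1 and Tnni2 were not printed. A set of 3 motifs that muscle genes often carry were searched for on both strands, namely the E-box (CANNTG) bound by MYOD and MYOGENIN, the MEF2 motif and the CArG box bound by serum response factor. An E-box was present in 15 of 21 promoters (71.4%) against 72.1% of 27025 mouse promoters, a MEF2 motif in 2 (9.52%) against 3.26% and a CArG box in 1 (4.76%) against 1.57%. The motif matches are descriptions of these windows only. The promoters with a MEF2 motif, shown in capitals, are those of Lrrc14b (chr13:74363951-74364250, minus strand) and Tcea3 (chr4:136247707-136248006, plus strand), and that of Hk2 (chr6:82774405-82774704, minus strand), which has neither a MEF2 motif, a CArG box nor an E-box, is printed for comparison.
Lrrc14b: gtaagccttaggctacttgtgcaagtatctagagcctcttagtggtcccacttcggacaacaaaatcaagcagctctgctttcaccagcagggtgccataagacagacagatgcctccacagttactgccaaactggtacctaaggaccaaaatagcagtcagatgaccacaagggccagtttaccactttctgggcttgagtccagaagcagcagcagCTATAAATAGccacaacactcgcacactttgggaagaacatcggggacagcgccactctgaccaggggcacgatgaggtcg
Tcea3: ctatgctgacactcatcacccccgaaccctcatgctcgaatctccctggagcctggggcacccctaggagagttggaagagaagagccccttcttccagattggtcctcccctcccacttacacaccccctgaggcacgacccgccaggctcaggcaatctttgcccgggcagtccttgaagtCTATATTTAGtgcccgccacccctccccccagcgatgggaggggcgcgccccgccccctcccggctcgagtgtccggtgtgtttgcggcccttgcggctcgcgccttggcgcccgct
Hk2: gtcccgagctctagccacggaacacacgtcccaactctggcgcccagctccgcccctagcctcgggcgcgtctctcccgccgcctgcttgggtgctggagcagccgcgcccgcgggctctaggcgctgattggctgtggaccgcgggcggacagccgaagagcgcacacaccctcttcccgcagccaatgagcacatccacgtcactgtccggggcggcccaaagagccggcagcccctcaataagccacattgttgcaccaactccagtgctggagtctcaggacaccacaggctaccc

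Lists of genes with known roles were then described, and in each case the background is the share of all genes with the same call. Of the contractile genes of fast fibres, 27 of 29 were lower (median log2 fold change -0.78) and 18 had an unadjusted p under 0.05 in the lower direction (background 5.8%). Myh4 measured 3285, 5912, 5570.0 and 13159 CPM with NAM/PN and 14221, 17212 and 15588 CPM with vehicle, which put NAM/PN replicate 4 next to the vehicle range (log2 fold change -1.17, standard error 0.35, adjusted p = 0.209 by edgeR). Tnnc2, the fast calcium-binding troponin, had a log2 fold change of -1.0 (standard error 0.26, adjusted p = 0.125 by edgeR), and Ckm, the muscle creatine kinase, one of -1.10 (standard error 0.29, adjusted p = 0.133 by edgeR). The calcium release list had 24 of 25 genes lower, with a median of -0.42. Its Atp2a1, the calcium pump of fast fibres, was at 1534, 2907, 2479 and 3921 CPM against 6276, 5191 and 5367 CPM (log2 fold change -1.05, standard error 0.27, adjusted p = 0.121 by edgeR).

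Among slow fibre genes 10 of 13 were higher, at a median log2 fold change of 0.22 and 0 at an unadjusted p under 0.05. Their spread between mice was large. The slow myosin light chain gene Myl3 ranged from 14.8 to 106 CPM with NAM/PN and measured 526, 5.00 and 165 CPM with vehicle, and Myl2 measured 133, 1.00 and 45.9 CPM with vehicle. Vehicle replicate 2 was thus almost without slow light chains while replicate 1 held the most, and a log2 fold change of -2.21 for Myl3 had a 95% confidence interval of -5.13 to 0.71.

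Glycolysis and glycogen genes were lower in 21 of 24 (median log2 fold change -0.74), with 14 at an unadjusted p under 0.05, all in the lower direction (background 5.8%). Beside Hk2 and Gpd1 the leading members were Phkg1, a subunit of phosphorylase kinase (log2 fold change -1.41, standard error 0.36, adjusted p = 0.109 by edgeR), and Fbp2, the muscle fructose bisphosphatase (log2 fold change -1.42, standard error 0.42, adjusted p = 0.197 by edgeR). Mean levels of this list, as the mean of log2(CPM + 1) over its genes, were 6.23, 6.81, 6.62 and 7.11 with NAM/PN and 7.56, 7.33 and 7.37 with vehicle, without overlap. By the same measure fast fibre genes did overlap, with NAM/PN replicate 4 at 10.72 and vehicle replicate 2 at 10.65.

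Respiratory chain subunits encoded in the nucleus had medians nearer to 0 than fast fibre or glycolysis genes. Of the 37 subunits of complex I, 36 were lower (median log2 fold change -0.46), 15 of them at an unadjusted p under 0.05 (background 5.8%). Of the 42 of complexes II to V, 39 were lower, with a median of -0.42. Ndufb9, an accessory subunit of complex I, measured 190.0, 237, 201 and 253 CPM with NAM/PN and 432, 303 and 330.0 CPM with vehicle (log2 fold change -0.69, standard error 0.18, adjusted p = 0.125 by edgeR), and Ndufv3 had a log2 fold change of -0.83 (standard error 0.23, adjusted p = 0.147 by edgeR). The 9 mitochondrially encoded genes tested were lower in 8, with a median of -0.96. The mitochondrial share of counts given above includes the counts of these same genes, so it is not a separate result. For mt-Co1, a catalytic subunit of complex IV, the values were 380.0, 690.0, 576 and 716 CPM against 1602, 737 and 1253 CPM, again with vehicle replicate 2 beside the NAM/PN libraries, and mt-Nd5 had a log2 fold change of -0.98 (standard error 0.26, adjusted p = 0.136 by edgeR). TCA cycle genes had a median of -0.46 with 20 of 22 lower, among them Suclg1 (log2 fold change -0.66, standard error 0.17, adjusted p = 0.125 by edgeR), and fatty acid oxidation genes a median of -0.36 with 20 of 22 lower.

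**Figure D3:**
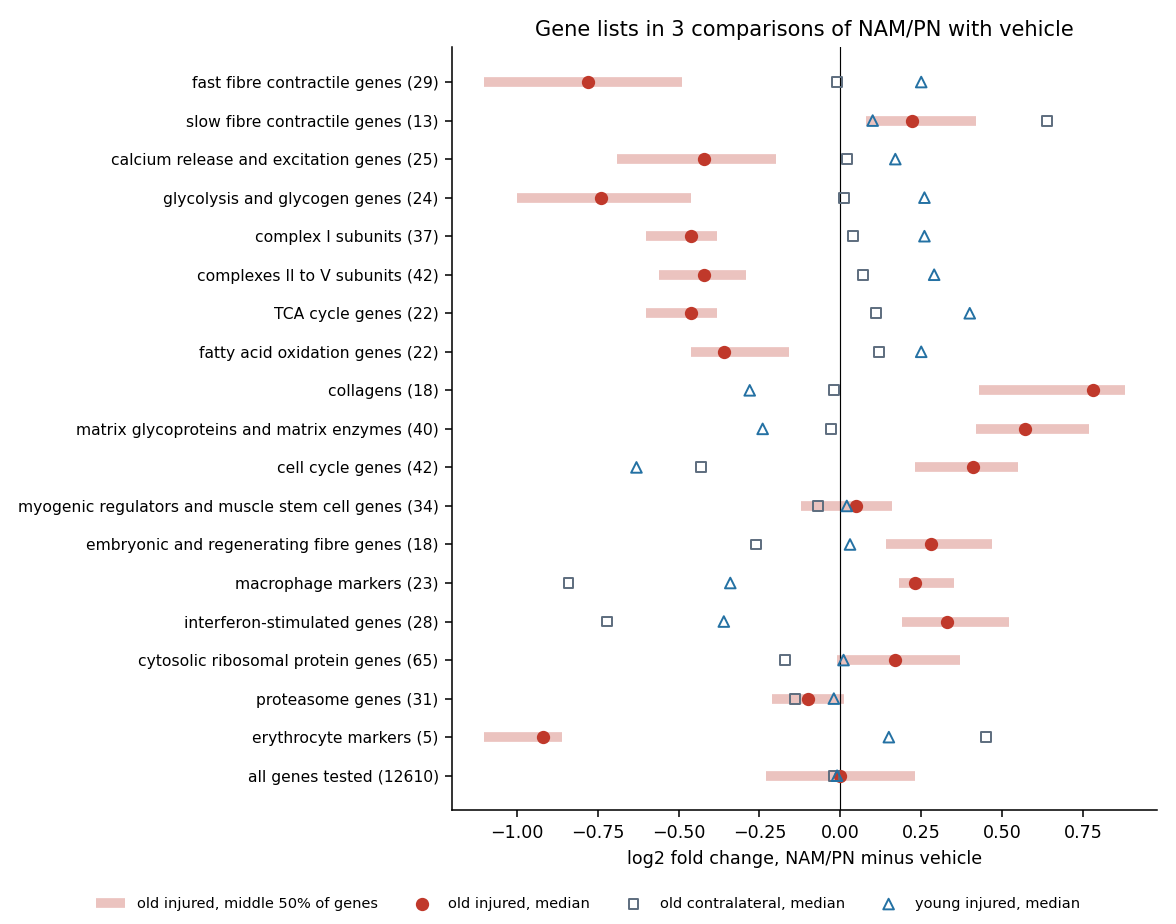
Median log2 fold change (NAM/PN minus vehicle, x axis) of each gene list, with the number of genes tested in brackets, in old injured muscle (filled circles, with bars over the middle 50% of genes), old contralateral muscle (squares) and young injured muscle (triangles). Fast fibre, glycolysis and respiratory chain lists lie left of 0 in old injured muscle and between -0.01 and 0.29 in the other comparisons, and collagens lie at 0.78, -0.02 and -0.28.

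Extracellular matrix genes had the opposite direction. All 18 collagen genes tested had a positive log2 fold change, with a median of 0.78, 5 at an unadjusted p under 0.05 (background 1.59%) and 11 without overlap between the groups (background 5.37%), but 0 passed an adjusted p of 0.1. Col1a1, the main fibrillar collagen, measured 3553, 2411, 2796 and 5474 CPM with NAM/PN and 1828, 1744 and 1426 CPM with vehicle. Its 4 NAM/PN libraries all lay above the vehicle range, and the log2 fold change was 1.09 (standard error 0.63, adjusted p = 0.791 by edgeR). Col5a2, which sets the diameter of collagen fibrils, was at 190.0, 150.0, 147 and 177 CPM against 84.6, 93.5 and 92.1 CPM, Col5a1 at 275 to 442 CPM against 171 to 194 CPM, and Col12a1 at 14.6 to 28.2 CPM against 7.79 to 11.7 CPM.

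Matrix glycoproteins and matrix enzymes were higher in 39 of 40, at a median log2 fold change of 0.57 and 22 without overlap (background 5.37%). Thbs2, a matricellular thrombospondin (ENSMUSG00000023885, chromosome 17, 14665500 to 14694235), measured 45.8, 42.6, 31.5 and 76.3 CPM against 26.5, 18.5 and 13.8 CPM, a log2 fold change of 1.33 (standard error 0.37, adjusted p = 0.147 by edgeR). Loxl2, a collagen crosslinking enzyme, had a log2 fold change of 0.90 (standard error 0.33, adjusted p = 0.366 by edgeR), Lamc1, a chain of basement membrane laminin, one of 0.62 (standard error 0.21, adjusted p = 0.31 by edgeR), and Sparc, a collagen-binding protein, one of 0.79 (standard error 0.36, adjusted p = 0.582 by edgeR). The mean log2(CPM + 1) of the list was 6.40, 6.23, 6.16 and 6.40 with NAM/PN and 5.77, 5.76 and 5.75 with vehicle. The smallest p-value of any higher gene was that of Ptms, which encodes the nuclear protein parathymosin, at 96.9, 80.6, 76.3 and 77.1 CPM against 42.7, 57.0 and 46.4 CPM (log2 fold change 0.77, standard error 0.19, adjusted p = 0.109 by edgeR). Apln, which encodes the ligand apelin, was at 8.17 to 12.4 CPM against 3.39 to 4.50 CPM, and Srpx2 and the integrin gene Itgb3 also lay above vehicle without overlap.

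The error of several of these genes depended on the libraries used to estimate it. Col5a2 had a log2 fold change of 0.88 with an SE of 0.38 and an adjusted p of 0.531 in the fit to 38 libraries, and of 0.92 with an SE of 0.16 and an adjusted p of 0.0756 in the fit to the 7 libraries (edgeR in both). For Col1a1 the SE was 0.63 and 0.30, and for Myh3 1.02 and 0.21. In the fit to 7 libraries 14 of 18 collagens and 25 of 40 matrix genes had an unadjusted p under 0.05 in the higher direction (background 6.18%), and 1 gene of each list passed an adjusted p of 0.1. Fast fibre genes numbered 15 of 29 and glycolysis genes 15 of 22 in the lower direction (background 6.18%).

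Stromal and immune cell markers were followed for their whole lists. Fibro-adipogenic progenitor markers were higher in 13 of 16, with summed levels of 1146 to 1578 CPM against 1090.0 to 1284 CPM, and Pdgfra, the receptor that marks these cells, was at 20.3, 15.8, 13.0 and 7.65 CPM against 9.50, 9.00 and 13.7 CPM. Macrophage markers were higher in 21 of 23, at 3940.0 to 4597 CPM against 3128 to 3977 CPM, at a median log2 fold change of 0.23, and Adgre1, which encodes the macrophage antigen F4/80, was at 37.3 to 55.6 CPM against 29.4 to 35.5 CPM. Inflammatory cytokine and chemokine genes (19 of 20 higher, median 0.42), interferon-stimulated genes (25 of 28 higher, median 0.33) and lysosome genes (21 of 23 higher, median 0.28) had the same direction, and Bst2, an interferon-induced membrane protein, was at 25.5 to 42.7 CPM against 14.4 to 24.7 CPM. An unadjusted p under 0.05 was found for 0 of 23 macrophage, 0 of 20 cytokine, 1 of 28 interferon and 1 of 23 lysosome genes (edgeR, background 1.59% higher). Without overlap in the higher direction were 3 of 23 macrophage, 1 of 20 cytokine, 6 of 28 interferon and 7 of 23 lysosome genes (background 5.37%). In the lower direction it was 1 cytokine gene. The fit to 7 libraries had 4 of 23, 2 of 17, 8 of 28 and 7 of 23 higher at an unadjusted p under 0.05 (background 6.18%) and 0 lower. In both fits 0 genes of these lists passed an adjusted p of 0.1.

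Markers of other cell types were followed in the same way. Erythrocyte markers were lower in 5 of 5, at 160.0 to 344 CPM against 284 to 581 CPM, and adipocyte markers in 10 of 12, at 316 to 2381 CPM against 1457 to 2956 CPM. Most of the adipocyte sum came from Car3, at 205 to 2288 CPM with NAM/PN and 1325 to 2802 CPM with vehicle. That sum is therefore not a level of fat cells. Adipoq, the defining gene of fat cells, stood at 3.82 to 5.58 CPM against 5.38 to 8.89 CPM. Summed levels of endothelial markers were 344 to 521 CPM against 385 to 526 CPM, those of pericyte and smooth muscle markers 2297 to 3575 against 2571 to 2937 CPM, those of tenocyte markers 225 to 485 against 183 to 307 CPM, those of Schwann cell markers 52.0 to 93.9 against 51.0 to 75.3 CPM and those of dendritic cell genes 1492 to 1856 against 1342 to 1546 CPM. T and NK cell, neutrophil and B cell markers summed to at most 23.7, 14.1 and 4.51 CPM, and Camp and Cd79a had 0 counts in all 7 libraries. A summed level is set mainly by the most abundant members of its list, so it need not follow the named cell type. For the pericyte and smooth muscle list, the share of single genes in the sum was not tested. The part of these cell types in the differences of fibre and matrix genes was not tested.

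Myogenic regulators were divided in direction. Of 34 genes tested, 18 were higher and 16 lower, at a median log2 fold change of 0.05. Pax7, the marker of MuSCs (chromosome 4, 139737062 to 139833528), measured 33.1, 20.0, 25.3 and 14.2 CPM with NAM/PN and 17.9, 22.7 and 26.6 CPM with vehicle. These ranges overlapped fully, and the log2 fold change of 0.05 had a 95% confidence interval of -0.67 to 0.76, which leaves room for a difference of either sign. Without NAM/PN replicate 1 it was -0.18. Myod1, the determination factor of activated MuSCs, was at 32.0, 29.8, 31.5 and 7.49 CPM against 17.4, 22.2 and 32.1 CPM, and Myog, which drives differentiation, at 145, 131, 111 and 30.6 CPM against 67.6, 79.5 and 134 CPM. In both genes NAM/PN replicate 4 lay below all other libraries. Mymk, the fusion factor myomaker, had a log2 fold change of 0.33 (95% confidence interval -1.43 to 2.09) and Myf5 one of 0.29 (-0.91 to 1.49). Eya1, a transcriptional cofactor of homeobox proteins, was the only myogenic regulator at an unadjusted p under 0.05, at 5.80 to 12.4 CPM against 13.3 to 17.7 CPM (log2 fold change -0.90, standard error 0.35, adjusted p = 0.447 by edgeR).

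Genes of new fibres and of proliferation passed an adjusted p of 0.1 in no case. Embryonic and regenerating fibre genes were higher in 14 of 18, at a median log2 fold change of 0.28 and 0 at an unadjusted p under 0.05. Myh3 measured 1468, 1338, 1082 and 1702 CPM against 1056, 933 and 1123 CPM, and the neonatal myosin gene Myh8 2060.0, 1424, 1604 and 1500.0 CPM against 1323, 1761 and 825 CPM. Cell cycle genes were higher in 41 of 42, with a median of 0.41. At an unadjusted p under 0.05 there were 3 in the higher direction (background 1.59%) and 1 in the lower (background 5.8%). Without overlap were 9 higher (background 5.37%) and 1 lower (background 6.73%). The fit to 7 libraries had 13 of 40 higher and 1 lower at an unadjusted p under 0.05 (background 6.18% in each direction). Mki67, the proliferation antigen, was at 30.7, 15.8, 27.6 and 22.2 CPM against 15.8, 20.2 and 18 CPM, a log2 fold change of 0.42 (95% confidence interval -0.86 to 1.71). Mcm3, a subunit of the replicative helicase, was at 17.1 to 26.8 CPM against 11.7 to 15.4 CPM (log2 fold change 0.61, standard error 0.24, adjusted p = 0.451 by edgeR), and the one member in the lower direction was the mitotic kinase gene Aurka, at 3.08 to 5.06 CPM against 6.00 to 9.19 CPM.

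**Figure D4:**
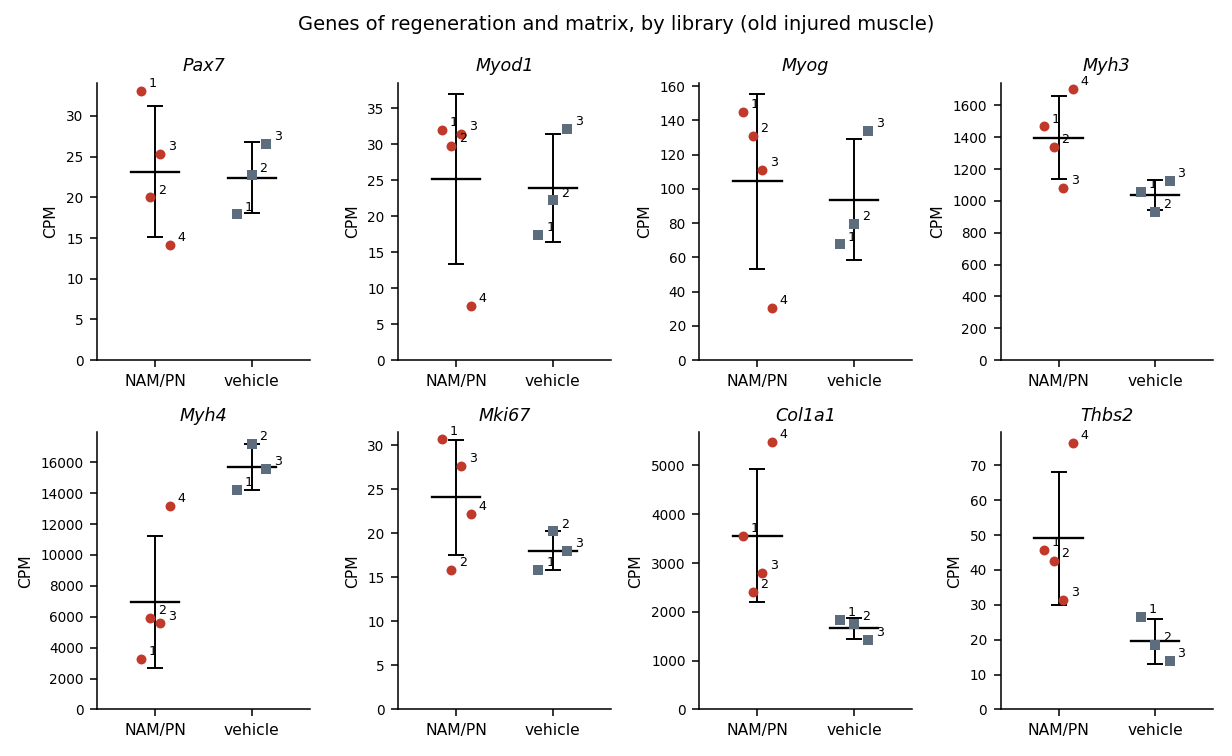
CPM of 8 genes of regeneration and matrix in each of the 7 libraries, numbered by replicate, with NAM/PN as circles, vehicle as squares, bars at the mean and error bars of 1 SD. Pax7, Myod1, Myog and Mki67 overlap between the groups, Myh4 is lower and Col1a1 and Thbs2 are higher in all 4 NAM/PN libraries, and Myod1 stands at 7.49 CPM in NAM/PN replicate 4.

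Pathways on which NAM and PN act were covered by lists of their enzymes and signals. Of 27 nicotinamide and NAD genes, 14 were higher and 13 lower, at a median log2 fold change of 0.02. Nampt, the rate-limiting enzyme that returns NAM to NAD, was at 38.5, 37.1, 33.2 and 22.5 CPM with NAM/PN and 43.9, 38 and 52.4 CPM with vehicle (log2 fold change -0.45, 95% confidence interval -1.06 to 0.16). Nmrk2, the muscle kinase that makes NAD from nicotinamide riboside, was the only member with an unadjusted p under 0.05, at 13.8, 28.8, 24.5 and 31.9 CPM against 101, 39.8 and 81.9 CPM (log2 fold change -1.58, standard error 0.49, adjusted p = 0.233 by edgeR). The methylating enzyme Nnmt had a log2 fold change of 0.61 (95% confidence interval -0.47 to 1.69) and the deacylase Sirt1 one of -0.34 (-0.95 to 0.28).

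Vitamin B6 genes were lower in 16 of 22, with a median of -0.16. Pdxk, the kinase that phosphorylates PN, was at 18.2, 21.2, 23.1 and 19.0 CPM against 15.4, 22.2 and 18.5 CPM, a log2 fold change of 0.12 with a 95% confidence interval of -0.39 to 0.64. Gpt2, a mitochondrial alanine transaminase that needs pyridoxal phosphate, was at 22.8, 21.1, 22.6 and 22 CPM against 48.6, 50.5 and 55.8 CPM. Both groups were tight, and Gpt2 was the single gene past 0.05 in the fit to 7 libraries (log2 fold change -1.19, standard error 0.14, adjusted p = 0.0436 by edgeR) while its adjusted p was 0.209 in the fit to 38.

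Signalling genes that the study connects with NAM and PN were compared last. The CK1 and beta-catenin list had a median of -0.03, with 13 of 31 higher. Csnk1a1, the gene of casein kinase 1 alpha, which primes beta-catenin for degradation, had a log2 fold change of -0.06 with a 95% confidence interval of -0.37 to 0.25, and Ctnnb1, the beta-catenin gene, one of -0.11 (-0.65 to 0.44), and scaling by total counts alone turned both to positive values of 0.21 and 0.19. Of 8 beta-catenin target genes tested, 4 were higher, with a median of 0.04, and Ccnd1, the cyclin gene among them, was at 47.5 to 58.4 CPM against 33.3 to 45.6 CPM (log2 fold change 0.39, 95% confidence interval -0.09 to 0.88). The list of AKT, mTOR and atrophy genes had 22 of 31 lower. Its atrophy ubiquitin ligases Fbxo32 and Trim63 were lower without overlap, Fbxo32 at 40.0, 88.9, 54.2 and 61.4 CPM against 134, 175 and 179 CPM (log2 fold change -1.41, standard error 0.39, adjusted p = 0.147 by edgeR) and Trim63 at 28.2 to 71.1 CPM against 89.5 to 107 CPM (log2 fold change -1.02, standard error 0.43, adjusted p = 0.514 by edgeR). Akt2, the isoform of insulin signalling, had a log2 fold change of -0.62 (standard error 0.30, adjusted p = 0.666 by edgeR), and Akt1 was at 175, 128, 153 and 37.9 CPM against 116, 106 and 142 CPM, with NAM/PN replicate 4 again the lowest library. These are transcript levels and carry no information on protein phosphorylation. Medians of housekeeping lists were -0.10 for 31 proteasome genes, or 0.17 when scaled by total counts alone, and 0.17 for 65 ribosomal protein genes. That scaling moved the median of all genes to 0.284.

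Each mouse had an uninjured leg, so the difference between legs was followed within animals. In both treatments all 26 genes stood lower in the injured leg than in the uninjured one (adjusted p under 0.05, edgeR), where 17.5% of all genes were lower and 20.8% higher with vehicle and 26.1% lower and 29.2% higher with NAM/PN. The comparison within mice uses the same injured libraries. The median log2 difference of the 26, injured minus contralateral, was -1.37 with vehicle and -2.82 with NAM/PN. Fast fibre genes had median differences of -2.90, -2.02, -2.33 and -1.61 in the NAM/PN mice and -1.08, -1.53 and -1.50 in the vehicle mice, which did not overlap. For glycolysis genes they were -2.68, -1.49, -2.01 and -1.85 against -1.08, -1.37 and -1.41, also without overlap. Collagens, in contrast, overlapped within mice, at 2.81, 2.79, 2.11 and 2.03 against 1.95, 2.58 and 2.15, and so did complex I subunits, at -0.79, -1.23, -1.26 and -1.10 against -0.44, -1.03 and -0.93. The median over all genes was 0.02 to 0.18 in every mouse.

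**Figure D5:**
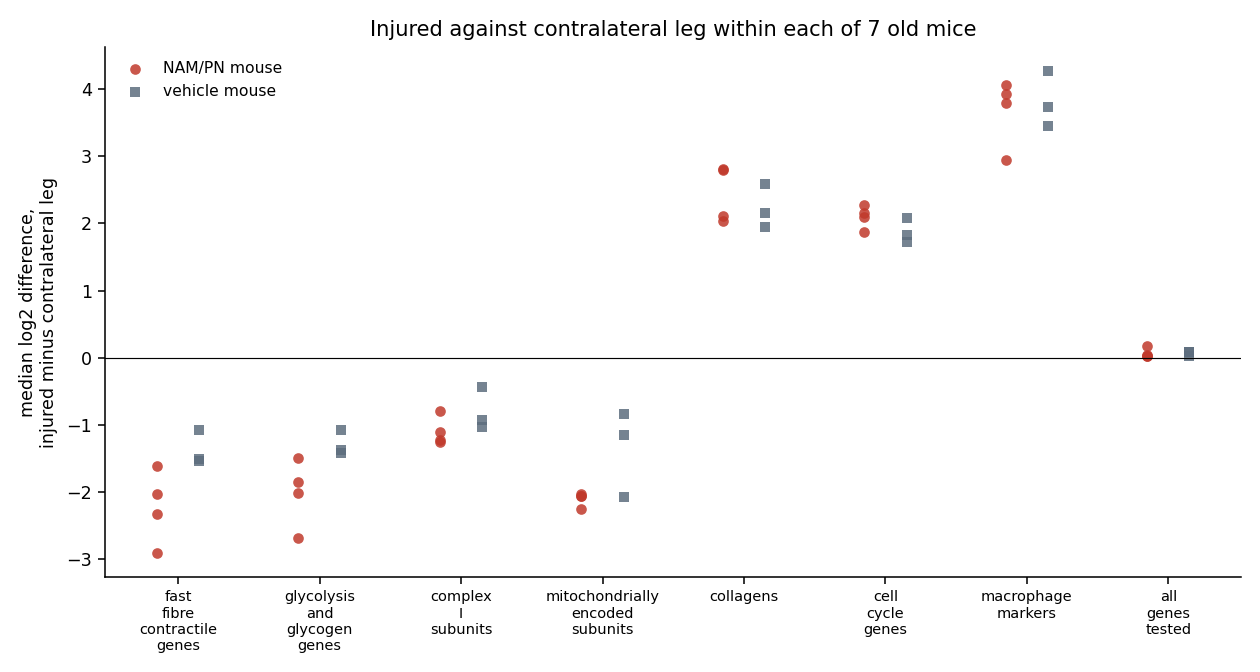
Median log2 difference between the injured and the contralateral leg (y axis) of each gene list, with 1 point per mouse, NAM/PN as circles and vehicle as squares. Fast fibre and glycolysis lists separate the 4 NAM/PN mice from the 3 vehicle mice, whereas the complex I, mitochondrially encoded, collagen, cell cycle and macrophage lists and all genes overlap.

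Whether the response to NAM/PN differed between the legs was tested directly. No gene passed an adjusted p of 0.05 (964 at an unadjusted p under 0.05, 7.64% of genes), and the smallest adjusted p was 0.32. DESeq2 called 36 genes. All 26 genes had an unadjusted p under 0.05 for this difference and all were in the lower direction, but the test shares the injured libraries that chose them. Pairing both legs of the 7 mice, with mouse as a replicate block in edgeR, left 0 genes past the threshold and 289 of 12046 had an unadjusted p under 0.05, 25 of the 26 among them. In this paired fit 8 of 24 glycolysis genes and 5 of 29 fast fibre genes had an unadjusted p under 0.05 (background 289 of 12046 genes). The counts were 0 of 18 collagens, 0 of 40 matrix genes and 0 of 37 complex I subunits. The unpaired test of the same difference had 2, 3 and 14 of these lists (background 7.64%). Collagen and matrix counts were thus near the background in both fits, and their change is not a result about these lists. The unpaired test uses the contralateral legs of all 6 NAM/PN and 6 vehicle mice, and the paired fit only those of the 7 mice. The 2 fits thus differ in libraries as well as in pairing, and the part of each was not tested. For Col1a1 the difference between legs was 0.86 unpaired and -0.05 paired on the log2 scale. Col12a1 had 0.35 and -0.22, and Thbs2 0.83 and 0.18. In contralateral muscle itself 0 of the 26 genes had an unadjusted p under 0.05 (background 4.11%), and their log2 fold changes lay between -0.49 and 0.32. Fast fibre genes had a median of -0.01 there and collagens of -0.02.

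Between old and young injured muscle the response differed in 0 genes at an adjusted p of 0.05 (1106 at an unadjusted p under 0.05, 8.77%), and DESeq2 called 90. The treated mice of the 2 ages carry different compound codes, so age and code cannot be told apart. The smallest adjusted p was 0.199. Among the 26, 25 had an unadjusted p under 0.05 for this difference, and this test also uses the old injured libraries. In young injured muscle 0 of the 26 had an unadjusted p under 0.05 for NAM/PN against vehicle (background 2.75%), and 18 of the 26 were not lower. List medians had opposite signs at the 2 ages for fast fibre genes (-0.78 old, 0.25 young), glycolysis genes (-0.74 and 0.26), complex I subunits (-0.46 and 0.26), collagens (0.78 and -0.28) and cell cycle genes (0.41 and -0.63). Levels are given side by side for Tnni2, which measured 1626 to 4406 CPM in old NAM/PN, 5777 to 7630.0 CPM in old vehicle, 3042 to 4595 CPM in young NAM/PN and 2598 to 5447 CPM in young vehicle injured muscle. For Col1a1 the same 4 groups were at 2411 to 5474, 1426 to 1828, 2480.0 to 4774 and 2864 to 6637 CPM. In both genes old vehicle muscle was the group that stood outside the other 3, above them for Tnni2 and below them for Col1a1. Tnni2 is among the 26, which were called in these same old injured libraries, and other genes differed in this respect. Hk2 overlapped, at 153 to 232 CPM in old vehicle and 73.6 to 190 CPM in young vehicle injured muscle, and so did Myh4. Col5a1 did not overlap, at 171 to 194 and 227 to 554 CPM.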

How the data were processed

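Whole gastrocnemius RNA was sequenced from transcript 3′ ends (QuantSeq). The authors aligned reads to GRCm38 with STAR and deposited raw counts per gene made with HTSeq 2.16.2. The annotation release and strand setting are not given in the sources used here, so overlapping or antisense genes cannot be told apart. Symbols and positions came from GENCODE M21, which held 27518 of 27554 identifiers. The other 36 carried 0.00214% of counts. Library totals were 4032414 to 7507191 over 38 libraries, and counts set the precision of low genes.

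Groups came from the labels. Counts were filtered with filterByExpr, scaled by TMM and tested with edgeR 4.0.16 (quasi-likelihood, R 4.3.3, 1 coefficient per group, all 38 libraries), with Benjamini-Hochberg adjustment over 12610 genes and thresholds of 0.05 and 0.1. Intervals cover 95%. Voom fits used limma 3.58.1, and DESeq2 1.42.0 was an alternative. The script was tested on simulated data. CPM use TMM-scaled library sizes, and list levels are means of log2(CPM + 1). Replicates are separate mice. The 7 mice gave both legs, paired by mouse identifier. Deviations of paired legs from their group means correlated at -0.303 to 0.252 (4 of 7 over 0.1), and the consensus correlation was 0.0484.

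Named genes were the 15 with the smallest p per direction (mean of at least 1 CPM, no overlap, absolute log2 fold change of at least 0.5), symbols at an adjusted p under 0.1, the 4 members of each of 38 lists with the smallest p, and genes of the study's question. Of the genes described, those outside these rules were chosen after their values were seen. Members and lists were chosen with earlier results of these data known.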

Additional observations from a re-analysis of the deposited data

Results flagged for a closer look

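Within the 4 NAM/PN libraries, 7 of 121 group values had 1 library far from the rest, its gap exceeding Dixon's 95% critical value. Chance alone gives about 1 in 20, or 6.05 here. Replicate 4 was the distant library for Myod1 (7.49 CPM), Mcm3 (26.8 CPM) and the mean log2(CPM + 1) of myogenic regulators (4.88), inflammatory genes (2.97), nicotinamide and NAD genes (2.77) and lysosome genes (6.65). Replicate 2 was the distant library for complex I subunits (6.66). The vehicle group has 3 libraries and was not examined this way.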

How the results depend on the processing

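Genes at an adjusted p of 0.05, 0 in the analysis reported, numbered 1 with the 7 libraries alone, 126 with DESeq2, 748 with voom and quality weights, and 0 to 112 with 1 library left out (112 without NAM/PN replicate 4, 13 without vehicle replicate 2). At 0.1, where 26 were called, there were 0 with the 15 injured libraries, 0 with total counts only (chosen after seeing the data), 220 with DESeq2, 1244 with voom and 0 to 209 with 1 library left out. Entering each mouse as replicate block gave 5 genes at 0.05 and 57 at 0.1, and with the title number as replicate block, which does not pair animals, 7 and 24. The difference between legs had 36 genes with DESeq2 and 183 with voom, and that between ages 90, 683 and, leaving out 1 library, 0 to 7. The causes were not tested.

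Of 80 genes examined, 74 kept their direction under every alternative and 27 of 38 lists kept the sign of their median. With 1 library left out, the log2 fold change of Pax7 was -0.18 to 0.22, of Myod1 -0.11 to 0.38, of Myog -0.05 to 0.50, of Akt1 -0.19 to 0.33 and of Csnk1a1 -0.17 to 0.02. Under the mouse block Myod1 was -0.08, Myog -0.01 and Akt1 -0.17, and under the title block Ctnnb1 was 0.02. With total counts only Csnk1a1 was 0.21 and Ctnnb1 0.19. Groups of 4 and 3 mice limit what could be detected.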
